A study of Mus musculus with 18 samples.

Results

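The cytosolic ribosomal protein genes of the mouse were followed across 6 groups of testis libraries. Members were taken by symbol: every gene whose name starts with Rpl or Rps and a digit, the P stalk genes Rplp0 to Rplp2, and Rpsa, leaving out the S6 kinase genes and symbols that mark a pseudogene. This gave 88 of the 20985 genes in the table. Of these, 77 encode canonical ribosomal proteins (43 of the large subunit, 31 of the small subunit and 3 of the P stalk), 10 are copies of a canonical gene, and Rps19bp1 encodes a protein that binds a ribosomal protein and is not one itself. Among the copies, Rpl32l and Rpl37rt are annotated as pseudogenes in GENCODE M21, although their symbols do not mark them so. A test was possible for 85 members, since Rpl3l, Rpl32l and Rps27rt did not reach 1 FPKM in 3 libraries.

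RNA was sequenced from testes of ICR mice, an outbred stock, at 10 weeks of age, with 3 libraries in each group. Control libraries carry no further description in the labels, and AOS libraries came from mice given alginate oligosaccharide, short sugar chains cut from seaweed alginate, at 10 mg/kg. STZ libraries came from mice given streptozotocin, which damages the insulin-producing beta cells and is used to model diabetes. Another 3 groups received STZ together with AOS at 10 mg/kg (STZ + AOS), with a transplant labelled AOS10mg/kg-FMT (STZ + AOS-FMT), or with one labelled control-FMT (STZ + control-FMT). FMT was read as faecal microbiota transplant. Nothing in the labels ties each library to an animal of its own, so the spread behind each p-value is that between libraries and may be technical.

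Ribosomal proteins are made in matched amounts and assembled with ribosomal RNA into a small subunit, which reads the mRNA, and a large subunit, which joins the amino acids. Several of their genes lie on the X chromosome, which is silenced in male germ cells as they pass through meiosis. Autosomal copies of some of these genes, made by retroposition, are used in germ cells, and Rpl10l is required for mouse spermatogenesis. RPL10 joins the large subunit late in its assembly, RPL39 lines the tunnel through which the new protein leaves, RPL36A sits at the exit site for transfer RNA, and RPS4X is a core protein of the small subunit.

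The X chromosome holds 4 of the members, Rps4x, Rpl36a, Rpl10 and Rpl39, and 3 of them have an autosomal copy among the members. Their promoters, and those of the 3 copies, are shown because the parent genes moved together across the groups while the copies were not called with them. Each line runs from 100 bases before to 20 bases after the gene start given by RefSeq, in build GRCm38.p6. Capitals mark matches, on either strand, to 4 short motifs: CGGAAG, the core bound by ETS factors; GCCATNTT, bound by YY1; the pyrimidine run CTTTCC; and the TATA box TATAAA.

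Rpl10 (chrX:74270716-74270835, plus strand): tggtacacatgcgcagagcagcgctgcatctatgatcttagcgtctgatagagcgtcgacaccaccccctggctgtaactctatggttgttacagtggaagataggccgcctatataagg
Rpl10l (chr12:66284382-66284501, minus strand): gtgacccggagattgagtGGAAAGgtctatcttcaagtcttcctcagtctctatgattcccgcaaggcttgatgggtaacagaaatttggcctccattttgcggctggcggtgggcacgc
Rpl39 (chrX:37085203-37085322, minus strand): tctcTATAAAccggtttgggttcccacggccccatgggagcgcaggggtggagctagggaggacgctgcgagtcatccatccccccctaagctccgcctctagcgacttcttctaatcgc
Rpl39l (chr16:10170128-10170247, plus strand): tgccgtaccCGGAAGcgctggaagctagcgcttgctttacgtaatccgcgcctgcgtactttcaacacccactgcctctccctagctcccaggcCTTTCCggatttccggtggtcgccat
Rpl36a (chrX:134585554-134585673, plus strand): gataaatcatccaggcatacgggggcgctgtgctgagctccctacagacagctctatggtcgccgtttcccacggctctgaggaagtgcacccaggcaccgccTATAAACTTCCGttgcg
Rpl36al (chr12:69184048-69184167, minus strand): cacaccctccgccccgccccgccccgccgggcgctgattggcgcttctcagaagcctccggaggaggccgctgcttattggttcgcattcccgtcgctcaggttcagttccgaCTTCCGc
Rps4x (chrX:102189372-102189491, minus strand): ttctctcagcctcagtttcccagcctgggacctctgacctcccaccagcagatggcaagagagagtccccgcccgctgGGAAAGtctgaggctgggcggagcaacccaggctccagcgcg

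In the full RefSeq windows of 300 bases, found for 68 of the 88 members, the ETS core stood in 47 of 80 member windows (58.8%) and in 16.9% of the 32851 windows of all genes. The YY1 motif stood in 21.2% of member windows and 6.1% of all windows, and the pyrimidine run in 50% and 26.6%. The TATA box stood in 10.0% of member windows and 13.6% of all windows. Matches to different motifs may share bases, and a match is a description of the sequence only. The ETS core stood in the full windows of Rpl10, Rpl39, Rpl36a, Rpl39l and Rpl36al, and was not matched in those of Rps4x and Rpl10l.

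Transcript levels are given in FPKM, fragments scaled by transcript length and library depth, so that levels of different genes can be set side by side. Summed FPKM per library lay between 561038 and 622169, and the table gives no counts, so the depth behind a value is unknown. STZ replicate 1 stood between the other STZ libraries and the remaining groups: on the first principal component (54.2% of the variance) it lay at 26.2, against 60.9 and 61.8 for STZ replicates 2 and 3 and −16.2 to −1.9 for the 15 other libraries. Testis markers were abundant, with Prm1, which packages sperm DNA, at 12800 ± 1040 FPKM in control libraries (SD, n = 3).

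Canonical members spanned a wide range of levels. The median of their means over the 18 libraries was 222.1 FPKM, 64 of the 77 stood at 100 FPKM or more, and 10 stood under 50 FPKM. The highest were Rpl41, which encodes the smallest ribosomal protein, at 1111 FPKM, Rps27 at 926.9 and Rpl26 at 845.6. The lowest tested members were Rps6, whose protein is the best known substrate of S6 kinase, at 3.22 FPKM, the copy Rpl37rt at 4.85 and Rpl34 at 5.57. Of the members below the filter, Rps27rt was listed at 0 in every library, Rpl32l reached at most 0.44 FPKM and Rpl3l, a muscle copy of Rpl3, at most 1.13. The 4 X-linked members had means of 31.4 to 107.3 FPKM, against a median of 227.9 for the 73 autosomal canonical members.

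Many members have near-identical processed copies in the genome, and how the counting treated reads that match several places is not given in the sources used here. In GENCODE M21 transcripts, the median member shared 49.2% of its 50-base stretches with another annotated gene, and 43 of 88 shared more than 50%. The share was 92.1% for Rpl10, 85.5% for Rpl36a, 72.2% for Rps4x, 16.2% for Rpl39, 63.3% for Rpl36al and 7.6% for Rpl10l, and it was 0% for Rpl39l. None of the copies shared a 50-base stretch with its own parent gene in the 6 pairs compared (0%). Levels of members with high shares, among them Rps6 (84.6%) and Rpl29 (66.6%), are therefore uncertain. Across the 85 tested members, the Spearman correlation between this share and the level was 0.11, and between the share and the STZ-to-control difference 0.15, given as descriptions.

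The first comparison asked how streptozotocin changed the members. Most of them were higher in STZ testes than in control testes. In limma's test on log2(FPKM + 1), fitted on all 14164 tested genes with Benjamini-Hochberg adjustment and called at an adjusted p under 0.05, 66 of 85 members rose (77.6%), against 43.2% of all tested genes, and 1 fell (1.18%), against 12% of all genes. The 3 STZ libraries lay wholly above the 3 control libraries for 69 members (81.2%), against 42.1% of all genes. The median difference was 0.33 on the log2 scale for members and 0.17 for all tested genes. The count depended on scaling. On the log2(FPKM + 1) scale the median value of a library was 3.391 to 3.611 in STZ and 3.166 to 3.206 in control libraries. With each library centred on its own median value, 15 of 85 members rose, against 18.9% of all genes, and 11 fell, against 43.2%. The member median was then −0.01, against −0.17 for all genes. With quantile normalization 72 members rose, against 22.3% of all genes, and 2 fell, against 28.9%. The median of all genes was then −0.06. Without STZ replicate 1, 67 members rose and 0 fell, against 48.6% and 14.9% of all genes.

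The rise was spread over the parts of the ribosome. Among large subunit members 35 of 43 rose (81.4%) and 1 fell (2.33%), with a median log2 difference of 0.32. Among small subunit members 26 of 31 rose (83.9%) and none fell (0 of 31), with a median of 0.38. Of all tested genes 43.2% rose and 12% fell. All 3 stalk genes, whose products recruit elongation factors to the ribosome, rose. Rplp0 stood at 545.0, 528.4 and 532.7 FPKM in control libraries and 638.0, 610.3 and 621.8 in STZ libraries, a log2 difference of 0.22. Rplp1 and Rplp2 rose by more, by 0.44 and 0.46. Under median centring the difference of Rplp0 turned to −0.12, and those of Rplp1 and Rplp2 stayed positive but were no longer called.

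**Figure D1:**
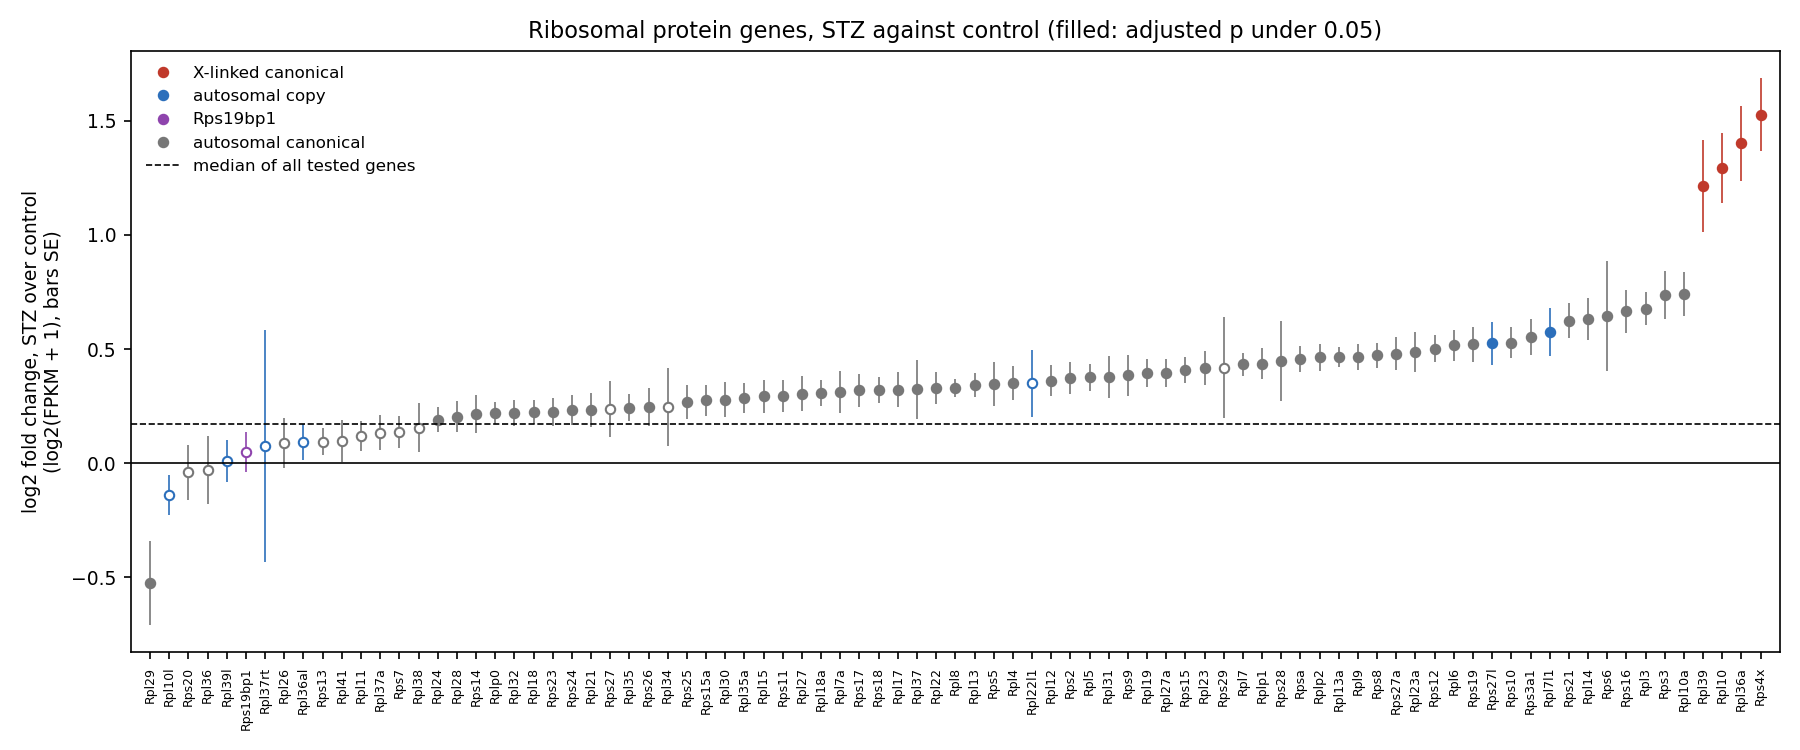
Log2 fold change of each of the 85 tested members between STZ and control libraries (n = 3 each) on the log2(FPKM + 1) scale, in ascending order, with bars for the standard error; filled points had an adjusted p under 0.05 (limma). The 4 X-linked genes stand at 1.21 to 1.53, above all 81 autosomal members, whose highest is 0.74; the dashed line is the median of all tested genes, 0.17.

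The largest differences were those of the 4 X-linked members, the only ones above 1 on the log2 scale. Rps4x stood at 29.1, 31.0 and 44.8 FPKM in control libraries and at 82.4, 111.3 and 111.8 in STZ libraries. Rpl36a stood at 38.3, 27.3 and 37.3 FPKM in control and 72.8, 109.9 and 95.2 in STZ libraries. Rpl10 stood at 90.9, 76.8 and 93.9 FPKM in control and 155.4, 246.3 and 257.2 in STZ libraries. In each of these genes the STZ libraries lay above every control library, and STZ replicate 1 was the lowest of the 3. Rpl39 followed the same order, at 27.4, 20.97 and 31.5 FPKM in control and 44.1, 76.9 and 71.1 in STZ libraries.

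The log2 difference of Rps4x was 1.53 (SE 0.16, limma adjusted p = 1.99e-06), that of Rpl36a 1.40 (SE 0.165, adjusted p = 6.07e-06), that of Rpl10 1.29 (SE 0.152, adjusted p = 6.08e-06) and that of Rpl39 1.21 (SE 0.2, adjusted p = 0.000127). These 4 stayed called under median centring, at 1.18, 1.06, 0.95 and 0.87, and under quantile normalization, at 1.57, 1.43, 1.39 and 1.19. Without STZ replicate 1 they were 1.67, 1.56, 1.52 and 1.46. Among all 634 tested X-linked genes, 51.1% rose, with a median of 0.33, against 43.6% of 13157 autosomal genes, with a median of 0.17. X-linked members were thus above the median of both the chromosome and the other members, whose median was 0.32; that difference was not tested.

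Their autosomal copies did not pass the test. Rpl10l stood at 162.4, 159.2 and 167.4 FPKM in control libraries and at 161.4, 141.7 and 140.8 in STZ libraries, which overlap (log2 difference −0.14, 95% interval −0.33 to 0.04, limma adjusted p = 0.183). Rpl39l stood at 163.7, 140.6 and 164.8 FPKM in control and 171.5, 139.2 and 161.9 in STZ libraries, with a log2 difference of 0.01 (95% interval −0.18 to 0.20). Rpl36al stood at 175.4, 163.6 and 150.4 FPKM in control and 159.4, 171.3 and 191.6 in STZ libraries, with a log2 difference of 0.09 (95% interval −0.07 to 0.26). In each pair the copy's 3 STZ libraries overlapped its 3 control libraries, while the parent's did not. With libraries centred on their median value, all 3 copies were called lower, Rpl10l at −0.48, Rpl39l at −0.33 and Rpl36al at −0.25, so their direction against the other genes depends on the scaling.

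**Figure D2:**
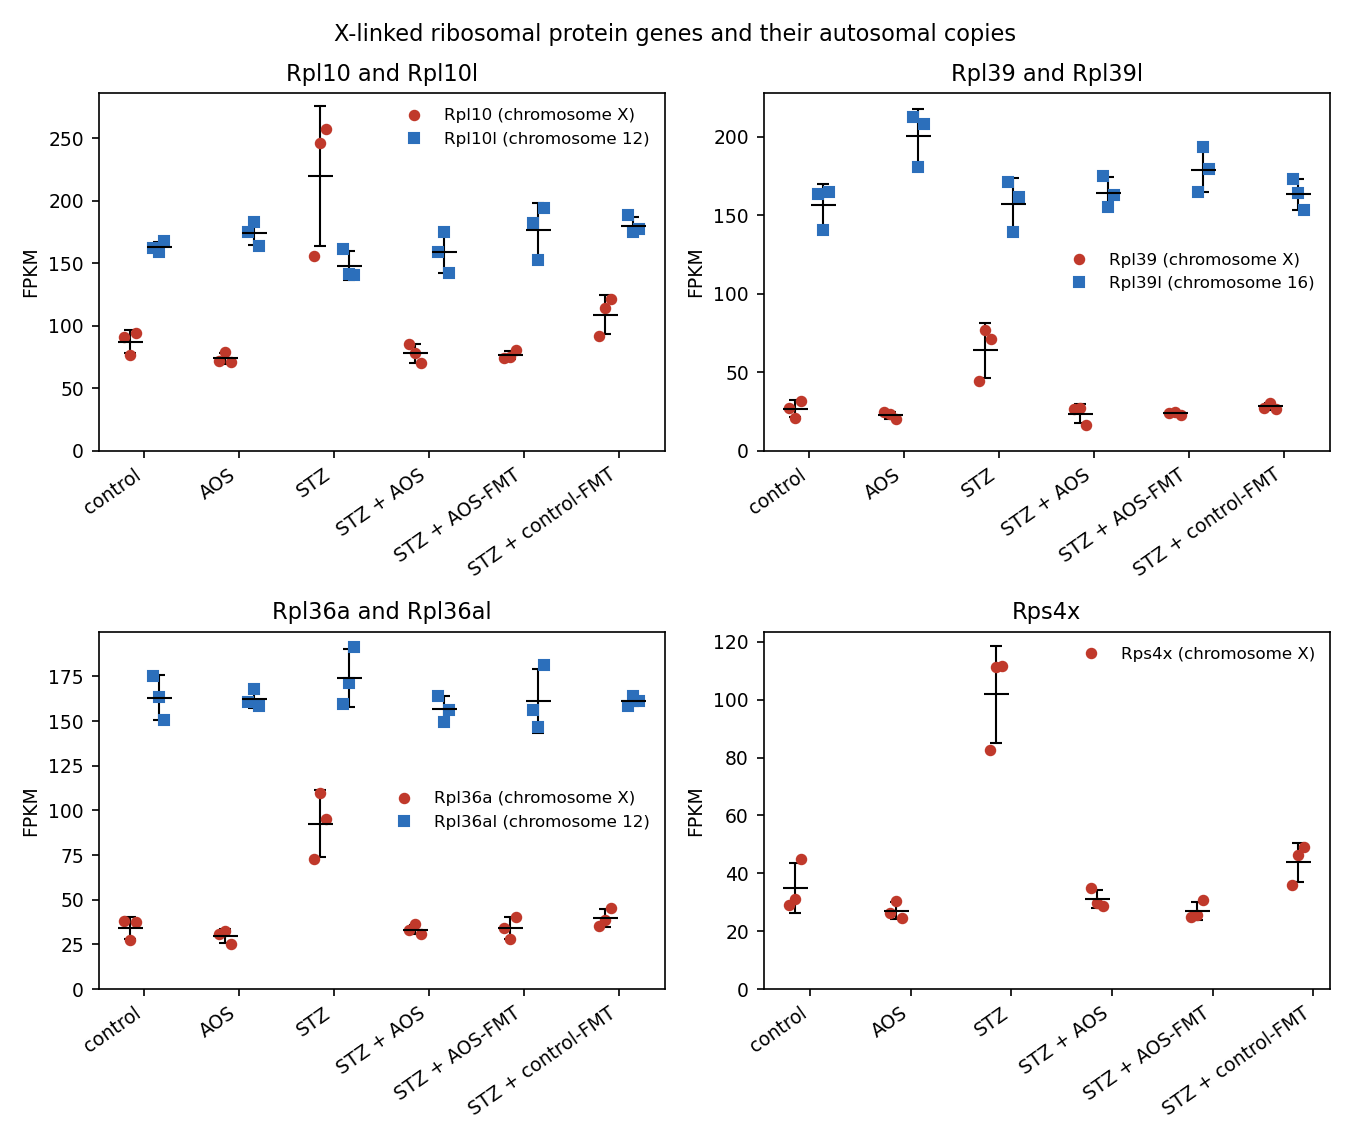
FPKM of the 4 X-linked members (red circles) and of 3 autosomal copies (blue squares) in each of the 18 libraries by group, with the mean and SD of 3 libraries in black. The parent genes are highest in the 3 STZ libraries, while the copies lie between 139.2 and 212.6 FPKM in all 18.

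The balance between copy and parent can be read within a library, where a scaling factor cancels. The Rpl10l to Rpl10 ratio of FPKM values was 1.79, 2.07 and 1.78 in control libraries and 1.04, 0.575 and 0.548 in STZ libraries. The copy thus had the higher FPKM of the pair in every control library and in 1 STZ library. Unequal sharing of 50-base stretches with other genes does not cancel in a ratio (92.1% for Rpl10, 7.6% for Rpl10l). Which gene of the pair was the more abundant is therefore uncertain. The Rpl39l to Rpl39 ratio was 5.98, 6.71 and 5.22 in control and 3.89, 1.81 and 2.28 in STZ libraries. The Rpl36al to Rpl36a ratio was 4.58, 5.99 and 4.03 in control and 2.19, 1.56 and 2.01 in STZ libraries. No ratio in an STZ library reached the lowest control ratio of its pair.

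On the log2 scale, after adding 1 FPKM to both genes, the ratios fell from control to STZ by 1.43 for Rpl10l to Rpl10, 1.21 for Rpl39l to Rpl39 and 1.31 for Rpl36al to Rpl36a. The exact two-sided permutation p was 0.1 for each, the smallest that 3 against 3 libraries allow, and 0.156 after Benjamini-Hochberg adjustment over the 28 tests of 7 pairs and 4 comparisons. Copies of autosomal parents differed less. The log2 ratio changed by 0.02 for Rpl22l1 to Rpl22, 0.29 for Rps27l to Rps27 and 0.14 for Rpl7l1 to Rpl7, and the libraries overlapped in all 3 pairs (exact permutation p = 1, 0.2 and 0.3). The 7th pair, Rpl3l to Rpl3, changed by −0.66, but Rpl3l was near 0 throughout, and the added 1 FPKM sets this value. Rps4l, a copy of Rps4x, was not listed under that symbol among the genes in the table, so this pair could not be compared.

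Of the 7 tested copies, 2 rose (28.6%, against 43.2% of all tested genes). Rps27l, a stress-responsive copy of Rps27, stood at 60.8, 68.8 and 60.0 FPKM in control and 84.6, 89.8 and 99.8 in STZ libraries, while Rps27 itself was not called (log2 difference 0.24, adjusted p = 0.108). Rpl7l1 stood at 12.3, 12.1 and 12.3 FPKM in control and 16.1, 19.8 and 20.5 in STZ libraries, and its parent Rpl7 rose from 207.8 to 280.6 FPKM on average. Under median centring Rpl7l1 stayed called at 0.23, while Rps27l (0.18, adjusted p = 0.0834 by limma) and Rpl7 (0.09, adjusted p = 0.184) were no longer called. Rpl22, an RNA-binding member, rose from 32.8 to 41.6 FPKM, a direction that reversed to −0.01 under median centring, and its copy Rpl22l1 missed the threshold (0.35, adjusted p = 0.0521). Rpl37rt was too variable to place, at 2.88, 5.83 and 4.49 FPKM in control and 1.79, 7.0 and 6.61 in STZ libraries.

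Next below the X-linked genes, Rpl10a stood at 81.9, 93.0 and 88.3 FPKM in control and 122.2, 159.5 and 163.6 in STZ libraries, a log2 difference of 0.74. Rps3, whose protein lies at the mRNA entry channel, stood at 33.4, 27.4 and 38.0 FPKM in control and 46.0, 59.5 and 60.9 in STZ libraries, a difference of 0.74 as well. Rpl3, next to the peptidyl transferase centre, stood at 85.7, 92.5 and 89.5 FPKM in control and 128.1, 147.0 and 155.7 in STZ libraries, a difference of 0.68. All 3 stayed called under median centring, at 0.40, 0.39 and 0.33. Rpsa, which was also described as a laminin receptor, rose by 0.46, Rpl13a by 0.46 and Rps27a, made as a fusion with ubiquitin, by 0.48, and none of these was called under median centring.

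Rps6 rose by 0.65 (adjusted p = 0.0322), but its libraries overlapped, at 3.77, 2.50 and 2.10 FPKM in control and 3.63, 6.35 and 4.83 in STZ testes. That call was lost under median centring, under quantile normalization, in a fit of the 2 groups alone, and when any of 4 single libraries (STZ replicate 2 or 3, control replicate 2 or 3) was left out.

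The 1 member that fell was Rpl29, at 10.9, 10.1 and 9.96 FPKM in control and 4.28, 7.58 and 9.72 in STZ libraries (log2 difference −0.52, adjusted p = 0.0249). The lowest value came from STZ replicate 1, the library nearest to control in the X-linked genes, and without it the difference was −0.24 and no longer called. The call was also lost without control replicate 1 (−0.49) and in a fit of the 2 groups alone (−0.52). Rps19bp1 was not called, at 10.0 FPKM in control and 10.5 in STZ testes. The members with the highest levels also missed the threshold: Rpl41 stood at 978.5 FPKM in control and 1047 in STZ testes, Rps27 at 900.5 and 1061, and Rpl26 at 797.5 and 848.6. Across the 85 members the Spearman correlation of the log2 difference with the mean level was −0.36, given as a description, since library and gene length are shared.

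Markers of other cells moved in the same comparison, in which 43.2% of all tested genes rose and 12% fell. All 13 Sertoli cell markers rose, their summed level lying at 1870 to 2450 FPKM in STZ and 777 to 850 in control libraries. Of 9 macrophage markers 8 rose, summing to 169 to 341 FPKM in STZ and 68.3 to 69.1 in control libraries. Markers of late germ cells fell, 7 of 7 for round spermatids (834 to 958 against 1090 to 1140 FPKM) and 10 of 10 for elongating spermatids (25800 to 47700 against 52300 to 58600 FPKM). Of 8 tested spermatogonium markers 6 rose, and of 10 spermatocyte markers 1 rose and 1 fell. All 4 peritubular myoid and all 3 endothelial cell markers rose, as did 1 of 3 red blood cell markers, and no adipocyte marker was called by limma (0 of 4, with 1 at an unadjusted p under 0.05). None of the 6 Leydig cell markers was called by limma (0 of 6, with 1 at an unadjusted p under 0.05), and their sum ran from 1770 to 12700 FPKM in STZ libraries. No Sertoli cell, macrophage or spermatid marker was listed at 0 in any library. In whole tissue, fewer cells of a type and less RNA per cell cannot be told apart, and the part of these markers in the ribosomal protein differences was not tested.

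The summed share of the members was highest in STZ libraries. All 88 members made up 3.53%, 3.43% and 3.53% of the summed FPKM in control libraries and 4.17%, 4.56% and 4.70% in STZ libraries. The mean share was 0.983 percentage points higher in STZ, and the libraries did not overlap (exact two-sided permutation p = 0.1, the smallest possible). AOS libraries stood at 3.65 ± 0.0352%, STZ + AOS at 3.58 ± 0.0925%, STZ + AOS-FMT at 3.57 ± 0.115% and STZ + control-FMT at 3.69 ± 0.0452% (SD, n = 3 each). AOS and STZ + control-FMT libraries did not overlap control either, with shares 0.156 and 0.196 points higher (exact permutation p = 0.1 each). The 4 X-linked members took 0.908 ± 0.117% of the canonical sum in control and 1.90 ± 0.358% in STZ libraries, with STZ replicate 1 at 1.49% and the others at 2.18% and 2.02%. In the other 4 groups that share lay between 0.705 ± 0.0514% in AOS and 1.03 ± 0.126% in STZ + control-FMT libraries.

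**Figure D3:**
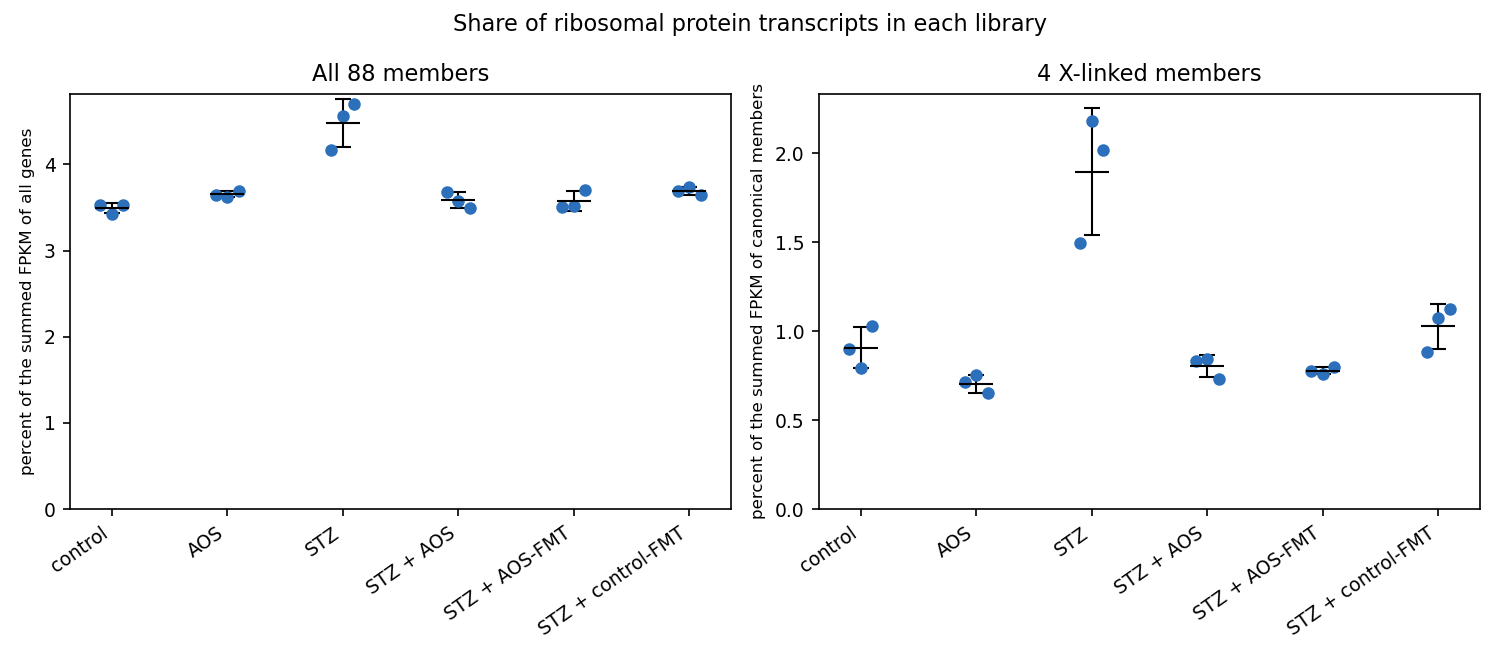
Left, the summed FPKM of all 88 members as a percent of the sum over all genes; right, the summed FPKM of the 4 X-linked members as a percent of the canonical sum. Points are libraries by group and black bars the mean and SD (n = 3); in both panels the 3 STZ libraries lie above the 15 others.

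Other genes of ribosome production and its control were read in STZ against control from lists of known genes, beside the 43.2% of all tested genes that rose and the 12% that fell. Of 45 tested ribosome assembly genes 29 rose (64.4%) and 3 fell (6.67%), with a median log2 difference of 0.25. The largest rises were those of Nhp2, a protein of the RNA-guided pseudouridylation complex, from 11.5 to 22.5 FPKM (0.91), and Ncl, nucleolin, from 15.5 to 28.2 FPKM (0.81), while Rpf2 and Wdr12 fell, by 0.25 and 0.18. Of 14 RNA polymerase I genes 8 rose (57.1%) and 0 fell, led by Ubtf, which activates transcription of ribosomal RNA genes (6.02 to 14.1 FPKM, 1.10), and Polr1b (1.25 to 2.48 FPKM, 0.62). Of 13 mTORC1 genes 9 rose (69.2%) and 0 fell (by limma, 0 lower at an unadjusted p under 0.05 in either of these lists), among them Deptor, an mTOR inhibitor, from 0.500 to 2.07 FPKM (1.03), and Eif4ebp1, a repressor of cap-dependent translation, from 10.9 to 21.8 FPKM (0.94).

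Elongation factors and other genes with the 5′ terminal oligopyrimidine tract of ribosomal protein mRNAs had 7 of 17 higher (41.2%), 3 lower (17.6%) and a median of 0.08, shares near those of all genes. Rack1, a protein of the small subunit outside the naming rule, rose from 65.8 to 117.0 FPKM (0.81) and Eef1b2 from 23.3 to 35.4 FPKM (0.58), while Eef1g fell from 369.3 to 311.3 FPKM (−0.25) and Eef1d from 380.8 to 324.8 FPKM (−0.24). Of 78 genes for mitochondrial ribosomal proteins 40 rose (51.3%, against 43.2% of all genes), led by Mrpl34 (0.84) and Mrps17 (0.78), and 1 fell (1.28%), Mrpl47 (−0.25), with a median of 0.23.

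The second question was how the members stood once STZ mice also received AOS or a transplant. Each of these comparisons uses the same 3 STZ libraries, so the results are not independent of each other or of the STZ-to-control comparison. In STZ + AOS testes 64 of 85 members were lower than in STZ testes (75.3%, against 43.1% of all tested genes) and 0 were higher, against 11.9% of all genes. One member, Rpl29, was higher at an unadjusted p under 0.05. Libraries did not overlap, with the lower values in STZ + AOS, for 64 members (75.3%), against 41.1% of all genes. In STZ + AOS-FMT testes 63 members were lower (74.1%, against 44.5%) and 1, Rpl10l, higher (1.18%, against 12%), and 60 members did not overlap in the lower direction (70.6%, against 42.7%). In STZ + control-FMT testes 58 were lower (68.2%, against 39.9%) and 1, again Rpl10l, higher (1.18%, against 11.4%), and 63 did not overlap in the lower direction (74.1%, against 38.2%).

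These counts shared the dependence on scaling. With median centring, each against STZ, 14 members were lower and 14 higher in STZ + AOS. In STZ + AOS-FMT 12 were lower and 25 higher, and in STZ + control-FMT 11 were lower and 16 higher. Of all genes, 19.9%, 19.4% and 17.7% were then lower and 44.6%, 44.8% and 41.9% higher. With quantile normalization 69, 68 and 66 members were lower, against 21.9%, 22.6% and 21.5% of all genes. In each comparison 2 members were then higher, against 29.9%, 29.8% and 26.2% of all genes. The median gene moved by −0.17, −0.18 and −0.15 on the log2 scale in these comparisons before centring, and the median member by −0.32, −0.33 and −0.28. Without STZ replicate 1, the counts of lower members were 66, 65 and 61, against 48.1%, 49.6% and 46.6% of all genes.

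The X-linked members were the 4 that fell most in each of the 3 comparisons. Rps4x stood at 34.8, 29.8 and 28.8 FPKM in STZ + AOS, 25.0, 25.5 and 30.7 in STZ + AOS-FMT, and 36.0, 46.3 and 49.0 in STZ + control-FMT libraries. All 9 values lay below the lowest STZ library, 82.4 FPKM. Rpl10 stood at 85.5, 77.7 and 70.5 FPKM in STZ + AOS, 74.0, 74.8 and 80.2 in STZ + AOS-FMT, and 91.4, 113.9 and 121.1 in STZ + control-FMT libraries, again all below the lowest STZ value, 155.4 FPKM. Rpl36a lay between 28.1 and 45.1 FPKM and Rpl39 between 16.5 and 30.6 FPKM in these 9 libraries.

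Against STZ, the log2 difference of Rps4x was −1.67 in STZ + AOS, −1.87 in STZ + AOS-FMT and −1.20 in STZ + control-FMT testes (SE 0.16 each, limma adjusted p = 1.08e-06, 2.68e-07 and 2.57e-05). That of Rpl10 was −1.45, −1.48 and −0.98, that of Rpl36a −1.43, −1.40 and −1.19, and that of Rpl39 −1.40, −1.35 and −1.12. Among autosomal members the largest decreases were those of Rps3 in STZ + AOS (−0.76), Rps3a1, a small subunit protein, in STZ + AOS-FMT (−0.75) and Rpl10a in STZ + control-FMT testes (−0.72). In the same comparisons Sertoli cell markers fell in 13, 13 and 13 of 13 and macrophage markers in 9, 8 and 8 of 9. Elongating spermatid markers rose in 10 of 10 each time, and the part of these markers was not tested.

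For the 3 pairs with an X-linked parent, copy to parent ratios were higher than in STZ libraries in all 3 treated groups. The Rpl10l to Rpl10 ratio was 2.04 ± 0.198 in STZ + AOS, 2.31 ± 0.235 in STZ + AOS-FMT and 1.69 ± 0.327 in STZ + control-FMT, against 0.721 ± 0.276 in STZ libraries (SD, n = 3 each). The Rpl39l to Rpl39 ratio was 7.38 ± 2.22, 7.52 ± 0.508 and 5.82 ± 0.479, against 2.66 ± 1.09. For Rpl36al to Rpl36a it was 4.73 ± 0.523, 4.75 ± 0.416 and 4.11 ± 0.482, against 1.92 ± 0.325. None of these 9 comparisons had overlapping libraries (exact permutation p = 0.1, adjusted 0.156), and control ratios were 1.88 ± 0.167, 5.97 ± 0.74 and 4.87 ± 1.01. In the same order of groups, the log2 ratio of Rpl7l1 to Rpl7 changed against STZ by −0.19, −0.07 and −0.22. That of Rps27l to Rps27 changed by −0.18, −0.05 and −0.26, and that of Rpl22l1 to Rpl22 by −0.01, 0.23 and 0.43. Of these, only Rpl7l1 in STZ + AOS and Rpl22l1 in STZ + control-FMT had no overlap (exact permutation p = 0.1, adjusted 0.156). Rpl3l to Rpl3 changed by 0.51, 0.39 and 0.56, with Rpl3l near 0.

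Rpl10l itself was higher than in STZ in both transplant groups. It stood at 182.0, 152.3 and 194.3 FPKM in STZ + AOS-FMT (log2 difference 0.25, adjusted p = 0.0256) and at 188.4, 174.6 and 177.1 in STZ + control-FMT libraries (0.28, adjusted p = 0.0137). Its libraries overlapped those of STZ in the STZ + AOS-FMT group and not in the STZ + control-FMT group. In STZ + AOS-FMT no member was called higher without STZ replicate 2 or STZ + AOS-FMT replicate 3. In STZ + control-FMT the call was lost under quantile normalization and without STZ + control-FMT replicate 1, STZ replicate 2 or STZ replicate 3. Against control, Rpl10l was called in neither group.

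**Figure D4:**
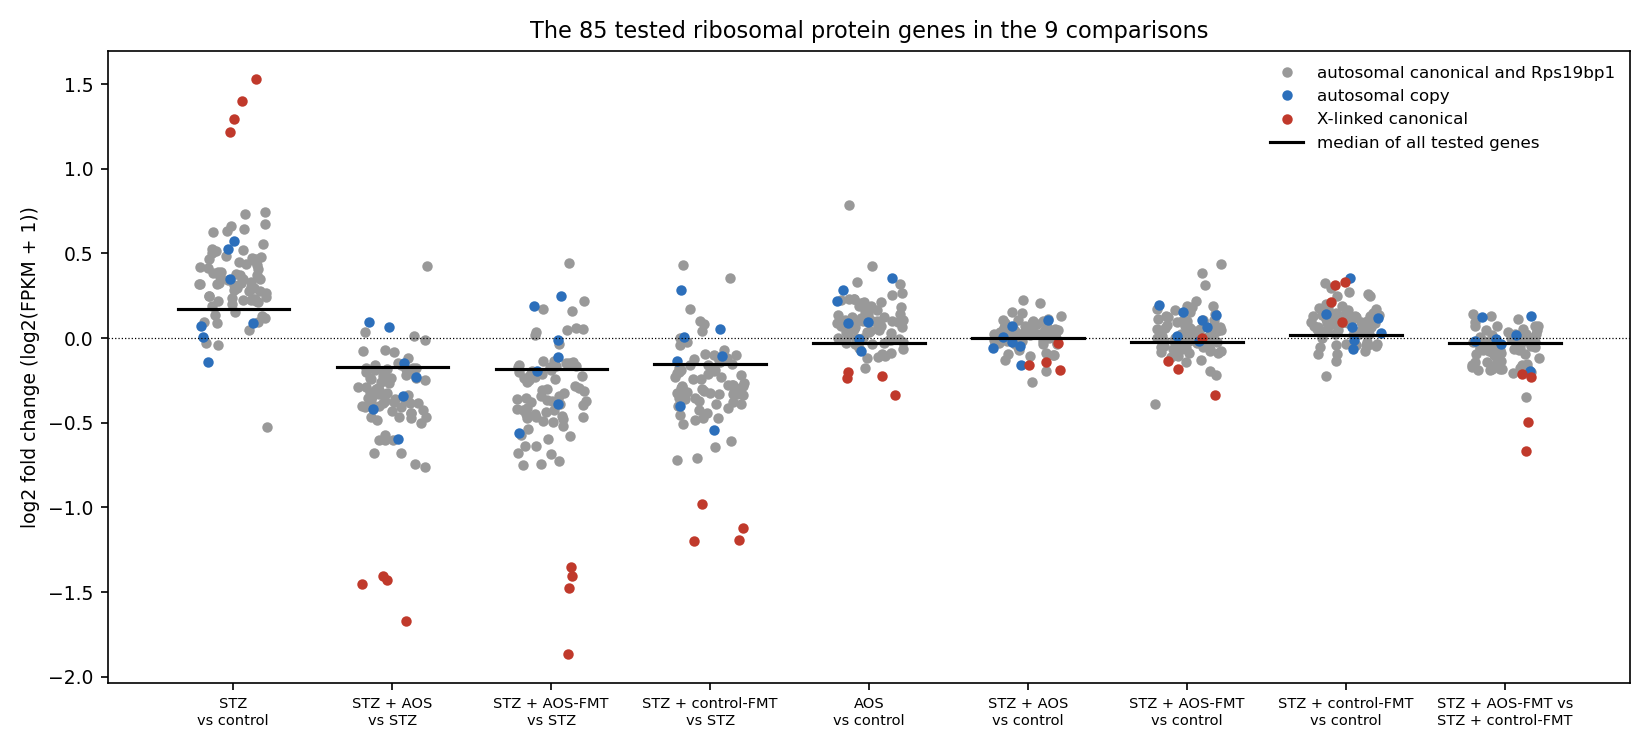
Log2 fold changes of the 85 tested members in the 9 comparisons, each point a member, with sideways scatter only to separate points; red, the 4 X-linked genes; blue, autosomal copies; black bars, the median of all tested genes. X-linked genes are the highest in STZ against control and the lowest in the 3 comparisons with STZ, which share the STZ libraries.

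The treated STZ groups were next set against control. By limma no member was called in STZ + AOS (0 of 85, with 2 at an unadjusted p under 0.05), in STZ + AOS-FMT (0 of 85, with 12) or in STZ + control-FMT testes (0 of 85, with 17), against 0.0141% of all genes higher and 0.0282% lower in STZ + AOS, and 0% in either direction in both transplant groups. The median member differed from control by 0.02, 0.01 and 0.09 on the log2 scale, against 0, −0.02 and 0.02 for all genes. At an unadjusted p under 0.05, all 17 members in STZ + control-FMT were higher than control (20%, against 4.43% of all genes higher and 1.81% lower). In STZ + AOS-FMT 9 were higher (against 3.35% of all genes) and 3 lower (against 3.19%), and in STZ + AOS both were higher (against 4.47% higher and 3.51% lower). The X-linked members stood 0.09 to 0.33 above control in STZ + control-FMT. They stood between −0.34 and 0 in STZ + AOS-FMT and between −0.19 and −0.03 in STZ + AOS. A p above the threshold does not show that the groups equal control: the 95% interval of Rps4x in STZ + control-FMT against control ran from −0.01 to 0.67.

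The comparison of the transplants with each other called 0 of 85 members by limma (0% of all genes in either direction), with 12 members at an unadjusted p under 0.05, all lower in STZ + AOS-FMT (14.1%, against 4.41% of all genes lower and 1.7% higher at that threshold). Rps4x had the smallest of these p-values: its 3 STZ + AOS-FMT libraries (25.0 to 30.7 FPKM) lay below the 3 STZ + control-FMT libraries (36.0 to 49.0 FPKM), with a log2 difference of −0.67 (95% interval −1.01 to −0.33, unadjusted p = 0.000771, adjusted p = 0.436). Rpl10 differed by −0.50 (95% interval −0.82 to −0.17, adjusted p = 0.696), also without overlap. The copies Rpl10l, Rpl39l and Rpl36al differed by −0.04, 0.13 and −0.01.

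The last comparison was AOS against control, in mice without STZ. No member was called by limma (0 of 85; 0% of all genes in either direction), while 22 members had an unadjusted p under 0.05 and all 22 were higher with AOS (25.9%, against 3.9% of all genes higher and 5.08% lower at that threshold). The median member was 0.09 higher on the log2 scale, while the median of all genes was −0.03. Elongating spermatid markers summed to 63600 to 65300 FPKM in AOS and 52300 to 58600 in control libraries (0 of 10 called by limma, 0 at an unadjusted p under 0.05), and their part was not tested. The largest differences were those of Rps29, a small zinc-binding protein of the small subunit, at 178.2, 140.8 and 159.9 FPKM in control and 352.6, 183.3 and 319.7 in AOS libraries (0.78, adjusted p = 0.407), Rpl37 (0.43) and the copy Rpl39l. Rpl39l stood at 212.6, 180.9 and 208.0 FPKM in AOS libraries, all above its control values (0.36, adjusted p = 0.407), and Rpl41 at 1299, 1112 and 1263 FPKM, against 1005, 927.1 and 1003 in control (0.32, adjusted p = 0.407). All 4 X-linked members pointed the other way, from −0.34 for Rps4x to −0.20 for Rpl36a. Across the 85 members the Spearman correlation of this difference with transcript length was −0.27, given as a description.

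Most members had their highest group mean in STZ testes, 71 of the 85 tested. Of the rest, 10 were highest in AOS and 4 in STZ + control-FMT testes, and none was highest in control, STZ + AOS or STZ + AOS-FMT (0 each). The matching shares of all tested genes were not computed, so these counts do not set the members apart from other genes. For each of the 4 X-linked genes the order of means was STZ, STZ + control-FMT, control, and then the remaining groups. For Rps4x the order was STZ (101.8 FPKM), STZ + control-FMT (43.8), control (34.96), STZ + AOS (31.1), and AOS and STZ + AOS-FMT (27.1 each). Neighbours after STZ in this order overlapped in their libraries.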

How the data were processed

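Values were FPKM per gene in 18 libraries. The authors deposited 1 table whose header names no unit, and its values were read as FPKM, since the smallest positive value of low genes falls with transcript length (Spearman −0.58 over 3067 genes), and RPKM would look the same. The submitters' processing notes name Bowtie 0.12.2 and mm10 without a role. The aligner settings, counter, annotation and treatment of multiply matching reads were not given in the sources used here, and no counts or depths are in the table.

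Tests used limma 3.58.1 in R 4.3.3 (trend on log2(FPKM + 1), genes with at least 1 FPKM in at least 3 libraries, 6 group means, all 18 libraries, two-sided, Benjamini-Hochberg adjustment over 14164 genes within each comparison). Folds are on that scale, which understates changes of low genes. The script was tested on simulated data. Shares and ratios used exact permutation tests (SciPy 1.17.1). Members were matched to GENCODE M21 (88 of 88). Alternatives changed the pseudocount to 0.1, the filter, the scaling (quantile, median centring), the libraries fitted and the replicate block, and left out each replicate. Named by rule were the 5 largest changes per direction and comparison among called members without overlap, a fixed set of parents, copies and well-known members, the 3 highest and 3 lowest levels, untested members, and the 2 largest changes per direction of each pathway list. Rps29, Rpl37, Rpl41 and Rpl39l in AOS, Rpl10l in STZ + AOS-FMT, and Rpl24 were chosen after their values were seen. Members and lists were chosen with earlier results of these data known.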

Additional observations from a re-analysis of the deposited data

Results flagged for a closer look

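The effect of AOS differed between mice with and without STZ. In a test of the difference itself, added after seeing the data (limma, the AOS effect with STZ minus that without), 62 of 85 members had a lower effect with STZ (72.9%, against 29.1% of all genes) and 0 a higher one (0 at an unadjusted p under 0.05), against 867 of 14164 genes higher. Rps4x had the largest difference, −1.33 (adjusted p = 0.000625), followed by Rpl36a at −1.23, Rpl10 at −1.22 and Rpl39 at −1.18. Rpl10l differed by 0.01 (adjusted p = 0.972). The STZ and control libraries enter this difference as in the comparisons above, so it is not independent of them. With median centring 15 members were lower and 1 higher, and the share of all genes was not computed for that setting. In STZ + control-FMT testes, whose label names no AOS, 58 of 85 members were also lower than in STZ (68.2%, against 39.9% of all genes). Whether the difference is particular to AOS was not tested.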

How the results depend on the processing

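No alternative of pseudocount or filter changed a count of called members by over 1.5 times, and median centring changed most. In STZ against control, median centring gave 15 members higher and 11 lower, against 18.9% and 43.2% of all genes. Quantile normalization gave 72 higher and 2 lower, against 22.3% and 28.9% of all genes. A fit of the 2 groups alone gave 0 lower, against 4.58% of all genes. Leaving out single replicates gave 59 to 67 members higher and 0 to 1 lower. In that comparison the log2 difference of 40 of 85 members turned from positive to negative under median centring, and that of 1 of them, Rpl24, from called higher (0.19) to called lower (−0.15). Quantile normalization turned 3 from positive to negative and 1 the other way. Among members named by rule, median centring reversed Rpl39l (−0.33), Rpl36al (−0.25), Rpl22 (−0.01), Rps27 (−0.11), Rplp0 (−0.12) and Rps19bp1 (−0.29, also −0.29 by quantile normalization). Leaving out single replicates moved Rpl39l from −0.07 to 0.09 and Rps19bp1 from −0.06 to 0.14. Against STZ, median centring gave 14 higher and 14 lower in STZ + AOS, 25 and 12 in STZ + AOS-FMT, and 16 and 11 in STZ + control-FMT. Of all genes, 44.6%, 44.8% and 41.9% were then higher and 19.9%, 19.4% and 17.7% lower. Quantile normalization gave 2 members higher in each, against 29.9%, 29.8% and 26.2% of all genes. It gave 69, 68 and 66 members lower, against 21.9%, 22.6% and 21.5%. Leaving out single replicates gave 0 to 1, 0 to 3 and 0 to 2 higher. The 2 groups alone gave 0 higher in STZ + AOS-FMT. Fitted without the other groups, fewer libraries set the spread. Then 54 members were called higher in STZ against control, against 31.7% of all genes. In the treated groups 47, 47 and 42 members were called lower than in STZ, against 30.9%, 32.8% and 26.5% of all genes. For the AOS effect with STZ minus without, median centring gave 15 lower and 1 higher, and quantile normalization 1 higher. The cause of these changes was not tested. In STZ against control, centring moved the median of all genes from 0.17 to −0.17.

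The AOS share difference was 0.227 points without protamine and transition protein genes in the sum. With 0.1 FPKM added, the Rpl3l to Rpl3 ratio in STZ + AOS-FMT against STZ turned to −0.08. Leaving out single replicates, the Rpl22l1 to Rpl22 ratio ran from −0.14 to 0.20 in STZ against control and −0.19 to 0.15 in STZ + AOS against STZ, and Rps27l to Rps27 from −0.14 to 0.05 in STZ + AOS-FMT against STZ. The exact permutation tests of shares and ratios cannot go below p = 0.1.

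Deviations of same-numbered libraries from their group means correlated only between −0.205 and 0.201. Differently numbered libraries were not set beside them, so this does not show that the libraries were unpaired. With the replicate number as a block, 66 members rose and 1 fell in STZ against control, and 2 were higher in STZ + AOS-FMT and 2 in STZ + control-FMT against STZ.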
